A study of Mus musculus with 2 samples.

Results

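In the kidney of newborn mice, 3081 weak peaks of CTCF, a zinc-finger protein that binds DNA, were called at one-direction promoters. The authors' reproducible list held 65482 peaks in all. A peak was counted here when 4 conditions of the rule held. It lay on chromosomes 1 to 19, its summit was within 1 kb of the transcription start site (TSS) of a protein-coding gene, all such start sites within that distance were on the same strand, and its signal was in the lowest 25% of the whole list. The signal, a value the peak caller gave each peak, therefore chose these peaks, and it is used below only to describe them. Start sites of every annotated transcript of a coding gene were counted, internal ones and those of non-coding transcripts among them. With gene 5′ ends only, 2168 members remained. The study measured CTCF by chromatin immunoprecipitation and sequencing (ChIP-seq) in kidney tissue of B6NCrl mice at postnatal age 0 days, with 2 libraries in 1 group and no treatment. The labels call the libraries biological replicates 1 and 2 but give both the same biosample and donor identifiers, so differences between them may be technical. Sex is given as not collected. The tissue was whole kidney, so weak signal in every cell and strong signal in few cells cannot be told apart. Whether CTCF binds the DNA under each peak was not tested. The peak lists hold no genes' expression and no read counts: the tissue label could not be checked against markers, and sequencing depth is unknown.

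CTCF recognises a long, GC-rich sequence motif with its zinc fingers. With the ring-shaped cohesin complex it anchors chromatin loops, and the direction of the motif sets which way a site faces in a loop. Many mammalian promoters lie in CpG islands, stretches where the CpG dinucleotide has been kept and is mostly unmethylated, and these stretches are accessible to many DNA-binding proteins. At a one-direction promoter the annotated coding genes are transcribed away from the start site on 1 strand only, in contrast to a bidirectional promoter shared by divergent genes.

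The sequences under the peaks show 2 of the forms that the members took. Further members had neither a motif match nor sequence rich in CpG, and none of these is shown. A motif matrix of 19 bp was learned from the strong peaks away from promoters, so that no weak or promoter peak entered it, and its consensus was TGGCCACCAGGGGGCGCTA. A match was a site within 100 bp of the summit that scored at least 13, a level reached by 1 in 10000 positions of control windows. The first 5 sequences are matches at members with some of the highest motif scores, with 5 bases on each side, and the capitals mark the 19 bp that match. Each is on the strand of the motif, and all coordinates are mm10 (GRCm38). They are shown because these weak peaks carry high-scoring sites: Ttyh3 at chr5:140627774-140627802, plus strand, score 20.9; Htr7 at chr19:36057369-36057397, plus strand, 20.8; Rhbdl2 at chr4:123812707-123812735, plus strand, 20.1; Adamts7 at chr9:90195173-90195201, minus strand, 19.5; and Trpm7 at chr2:126833408-126833436, plus strand, 19.2.
Ttyh3: tgtggAGACCAGTAGAGGGCGCTGgctcc
Htr7: ggcgcTGGCCACTGGGGGGCGCCCggctc
Rhbdl2: cttggGTGCCAGAAGGGGGCGCTGgattc
Adamts7: ctcacTAGCCTCCAGATGGCGCCCaggcc
Trpm7: cccagAAGCCAGAAGAGGGCACCAgatcc
The next 3 are 60-base windows centred on summits without a match, taken from the members with the highest CpG ratio, on the strand of the gene. Here the capitals mark the CpG dinucleotides. They are shown because this form, rich in CpG and without a CTCF match, was the most common, with 1556 of the 3081 members: Fosl2 at chr5:32135047-32135106, plus strand; Atad2 at chr15:58135290-58135349, minus strand; and Lin28b at chr10:45485701-45485760, minus strand.
Fosl2: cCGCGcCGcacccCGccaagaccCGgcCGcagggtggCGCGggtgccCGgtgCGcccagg
Atad2: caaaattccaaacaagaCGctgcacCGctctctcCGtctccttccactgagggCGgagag
Lin28b: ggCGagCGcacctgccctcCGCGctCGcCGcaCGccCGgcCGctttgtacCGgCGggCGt
The best-scoring position within 100 bp of the summit reached 12.7 at Fosl2 and 12.7 at Lin28b, just under the score of a match, and 2.77 at Atad2.

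Weak peaks made up a larger part of promoter peaks than of other peaks. Of the 9921 one-direction promoter peaks on the autosomes, 31.1% fell in the lowest 25% of signal, against 23.8% of the 53165 peaks with no coding start site within 1 kb, called distal here, and 38.2% of the 770 at bidirectional promoters. These shares follow from the rule and were not tested. The signal of the members ran from 5.2 to 33.7 with a median of 22.3, while the strong one-direction promoter peaks, the 1987 in the highest 25% of the list, ran from 198 to 615. The threshold passed through a dense part of the list. Just inside it were peaks at Fam173a, Stk39, Zfp2, Cstad and Rab5c, with signals of 33.64958 to 33.66454. Just outside were peaks at Bag2, Mknk1, Uqcrc2, Cabp2 and Tln2, with 33.69372 to 33.74956.

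Most weak promoter peaks had no CTCF motif match. A match lay within 100 bp of the summit in 408 of 3081 members, or 13.2% (95% Wilson interval 12.1% to 14.5%), where 60.8% of all 63856 optimal peaks on autosomes had one. Among the 12660 weak distal peaks, chosen by the same signal threshold, the share was 44.7%. The difference of -31.5 percentage points (95% Newcombe interval -32.9 to -30) gave an adjusted p of 5.28e-256 by a two-sided Fisher's exact test, with Benjamini-Hochberg adjustment over the 10 comparisons made. Among strong one-direction promoter peaks the share was 75.2%, a difference of -61.9 points (-64.1 to -59.6), and the base-10 logarithm of the adjusted p was -451. The matrix was learned from distal peaks past the same signal threshold as these strong peaks, so it may favour them, which was not tested. The members had the lower share on each of the 19 autosomes in both comparisons, with 5.33% to 17.6% per chromosome against 38% to 49.2% in weak distal peaks and 69.3% to 83.6% in strong promoter peaks. Peaks of a single sample pair are not independent replicates, so these tests compare sets of peaks in this tissue sample. In windows 2 kb to either side of the members' summits, 1.66% and 1.49% held a match.

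Base composition moved with the motif share. A window of 250 bp on each side of the summit was called CpG-island-like when its GC content was above 50% and its ratio of observed to expected CpG above 0.6. In such windows 4.6% of members had a match (75 of 1631), against 23% of the other members (333 of 1450). Weak distal peaks had a match in 8.77% of their few CpG-island-like windows (20 of 228) and in 45.4% of the others, so that within CpG-island-like windows the difference was -4.17 points, smaller but still past the threshold. Strong promoter peaks had a match in 64.6% of CpG-island-like windows and in 81.4% of the others. For reference, the windows around all 8118 CpG-island-like one-direction gene 5′ ends held a match in 4.59%; this set includes promoters with members and with stronger peaks. The 3881 of these with an optimal peak within 1 kb held a match in 8.27%, and the 4237 without one in 1.23%, so the members' 4.6% lay between these shares. The members' windows lay around summits near any transcript start, so these sets of windows are unlike. The part of base composition in the motif difference was not otherwise tested.

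**Figure D1:**
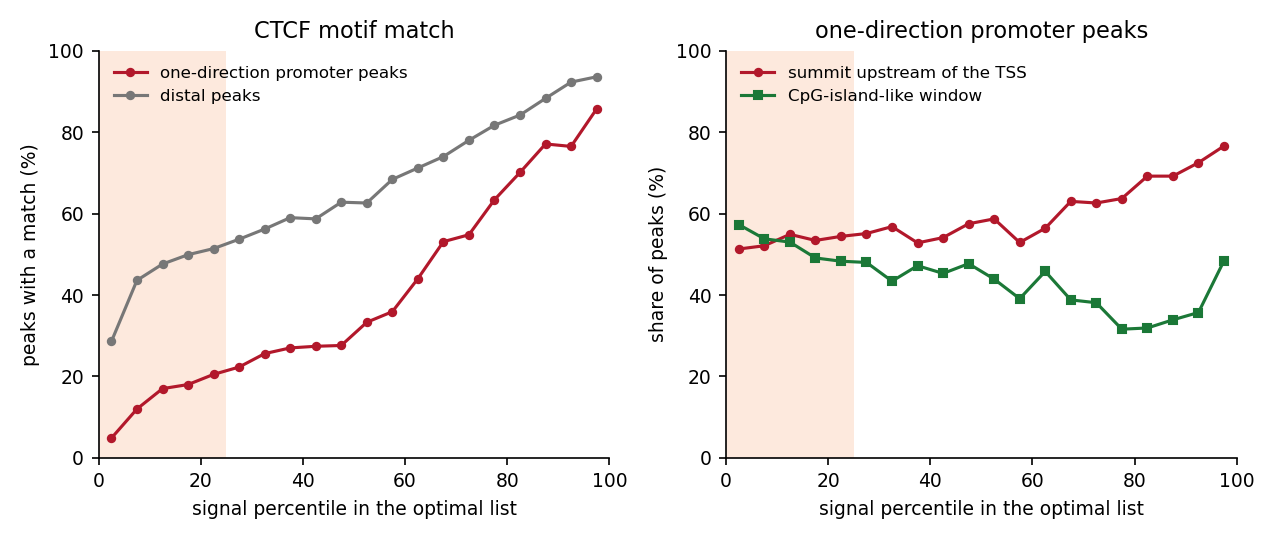
Left: share of peaks with a CTCF motif match (%, y axis) in bins of 5% of the signal ranking (x axis, percentile in the optimal list) for one-direction promoter peaks (red) and distal peaks (grey). Right: share of one-direction promoter peaks with the summit upstream of the nearest TSS (red) and with a CpG-island-like window (green). The shaded band marks the lowest 25% that holds the members. The motif share of promoter peaks climbed from 4.85% in the lowest bin to 85.7% in the highest and stayed below that of distal peaks in each bin.

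The motif share rose along the ranking inside the weak set as well. In bins of 5% of the list's signal ranking, one-direction promoter peaks had a match in 4.85% of the lowest bin, 12% of the next, 17% and 18% of those that followed, and 20.5% of the bin just under the threshold. Distal peaks went from 28.6% to 51.4% over the same bins. The plot of shares by signal bin shows no step at the threshold: the next bin of promoter peaks, outside the weak set, stood at 22.3%, and the highest at 85.7%.

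CpG-island-like sequence lay under most members. The share was 52.9% (1631 of 3081), against 1.8% of weak distal peaks, a difference of 51.1 points (49.4 to 52.9; base-10 logarithm of the adjusted p -1062, Fisher's exact test). The rule placed every member near a start site, so this difference contains that of promoters from other sequence: 44.4% of the 18285 one-direction gene 5′ ends had such a window, 71.4% of the 5437 with an optimal peak within 1 kb and 33% of the 12848 without. These windows lay around gene 5′ ends, and those of members around summits near any transcript start, so the sets are unlike. With members placed by gene 5′ ends only, 65.5% of 2168 had such a window. Against strong one-direction promoter peaks, at 37%, the members were higher by 15.9 points (13.2 to 18.7; adjusted p = 1.51e-28, Fisher's exact test). The median CpG ratio was 0.64 in members, 0.507 in strong promoter peaks and 0.188 in weak distal peaks.

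**Figure D2:**
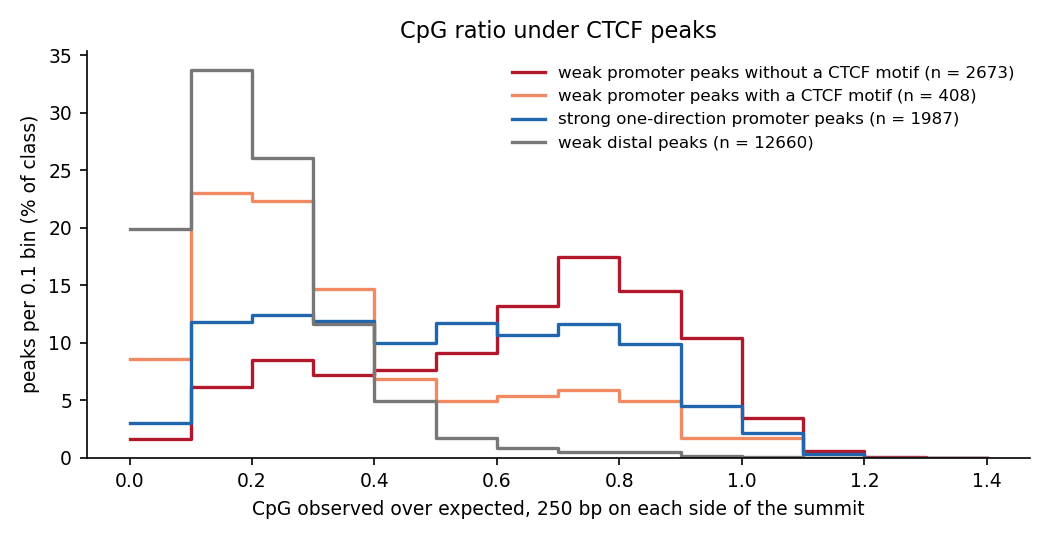
Ratio of observed to expected CpG in 250 bp on each side of the summit (x axis, bins of 0.1) and share of each class of peaks per bin (%, y axis). Weak promoter peaks without a motif (dark red) peak at ratios of 0.7 to 0.8, with 17.5% in that bin, while those with a motif (orange) and weak distal peaks (grey) are most frequent between 0.1 and 0.2, with 23% and 33.7% there.

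The values of members with and without a match are given side by side as a description, with no test. The CpG ratio had a median of 0.278 in the 408 members with a match and 0.676 in the 2673 without. A CpG-island-like window was present in 18.4% and 58.2% of them. The summit lay in soft-masked sequence, mostly repeats, in 40.9% of members with a match and 5.95% of those without. It was within 250 bp of the start site in 28.4% and 60.4%. The signal was somewhat higher in members with a match, with a median of 25.5 against 21.7. Some values were nearly equal: the summit was upstream of the start site in 53.9% and 52.8%, both libraries overlapped 91.2% and 91.4%, and the upper sets of both libraries, also by overlap, held 31.9% and 29.5%. Others differed. A summit within 100 bp in both libraries was present in 77.5% and 61.5%. The q-value was above 0.05 in 1.23% and 8.16%, and a higher peak lay within 1 kb in 13.7% and 27.6%. In the profile of CpG ratios, members with a match have their maximum in the same bin as weak distal peaks, and those without a match have theirs at higher ratios.

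By a matrix learned from strong distal peaks, the matches that were present scored lower and sat farther from the summit than in strong peaks. Their median score was 15, against 15.7 in weak distal and 17.8 in strong promoter peaks, and the median distance from match to summit was 13, 10 and 5 bp. At Ttyh3, a membrane protein of the tweety family, the match was centred 1 bp from the summit. The peak stood at the 77.8th percentile of signal in the list of replicate 1 and the 84.6th in that of replicate 2. Where a library summit lay within 100 bp, the members' medians were 79.5 and 78.5, so percentiles near 80 are usual for them. Htr7, a serotonin receptor, had its match 4 bp from a summit 6 bp upstream of the start site, in a window with a CpG ratio of 0.93, with percentiles of 84.1 and 81.6. Its window was CpG-island-like, as in 75 of the 408 members with a match of any score. Rhbdl2, a rhomboid protease, stood at 83 in replicate 1, and no summit of replicate 2 lay within 100 bp. The same held for Adamts7, a secreted metalloprotease, at 79.3 in replicate 1, and for Serpine2, a protease inhibitor, at 83.5. Trpm7, an ion channel with a kinase domain that carries magnesium, stood at 80.5 in replicate 1, and its 29 bp between match and summit were the largest distance of the 10 members with the highest scores among summits outside soft-masked sequence. The others of these 10 were Gm42416 (20), Polr3gl (19), Osbpl5 (18.8) and Kcnip3 (18.8), all with summits in both libraries and percentiles of 80.6 to 84.1. High-scoring sites thus lay in peaks of weak signal. Of the 10, 6 had summits within 100 bp in both libraries, where 77.5% of all members with a match had them.

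The motif pointed along the gene in 49.5% of members with a match (202 of 408) and in 56% of strong one-direction promoter peaks with one (837 of 1494). The difference was -6.51 points (-11.9 to -1.06; adjusted p = 0.0214, Fisher's exact test). It missed the threshold of 0.05 in 4 of 13 alternative settings, with -5.36 points without peaks near a higher one, -5.57 in the lowest and highest 10%, -5.59 with matches sought within 50 bp, and -24.8 at a score that 1 in 100000 positions reach.

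The 5 members without a match and with the highest CpG ratios were at Kdm7a, a histone demethylase (1.2), Arhgap5, a GTPase-activating protein (1.19), Epc1, a chromatin subunit (1.18), Fosl2, a subunit of the AP-1 transcription factor (1.17), and Atad2, a bromodomain protein (1.16). Kdm7a stood at the 79.1th percentile in replicate 1 and the 63.8th in replicate 2, and Epc1 at 81.3 and 54.2. Fosl2 had a summit within 100 bp in replicate 1 only (84.5) and Atad2 in replicate 2 only (61.9). Arhgap5 had none in either library and lay 209 bp from a peak of higher signal. Of these 5, 2 had a summit within 100 bp in both libraries, where 61.5% of all members without a match had one.

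Short words recognised by general promoter factors, with letters searched on both strands within 100 bp of the summit, gave a further description. GGGCGG, the GC box bound by SP and KLF factors, occurred in 39% of members, 26.3% of strong one-direction promoter peaks and 5.28% of weak distal peaks. It occurred in 38.9% of all windows around one-direction gene 5′ ends and in 68.4% of CpG-island-like ones without a peak. CCGGAAG, a word of ETS factors, occurred in 6.69% of members, 6.95% of strong and 1.33% of weak distal peaks, against 8.32% of all those promoters. CCAAT, the word of NFY, occurred in 20.3%, 20.6% and 20.1% of the peak classes, and in 27.7% of promoters. TATAAA, the TATA box, occurred in 4.09% of members and 11% of weak distal peaks, against 8.93% of promoters. TGACGT, the core of the cyclic AMP response element, occurred in 4.67% of members, 3.12% of strong and 1.5% of weak distal peaks, against 6.16% of promoters. None of these 5 words was more frequent in members than in all one-direction promoters by more than 1 percentage point. GCATGCG (NRF1), AAGATGG (YY1), CACGTG (E-box) and ACTACAA (ZFP143) occurred in 1.91%, 4.51%, 4.54% and 1.91% of members, each below its share in all those promoters. The GC box can overlap the CTCF motif, whose consensus holds GGGGGCG. The promoter windows lay around gene 5′ ends, and those of members around summits near any transcript start. The set of all promoters also includes promoters with members. The shares therefore come from unlike windows and do not show whether members are richer or poorer in these words than promoters. Words in a window are descriptions and not binding sites.

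Weak summits fell on both sides of the start site, whereas strong ones lay mostly upstream. The summit was upstream of the nearest start site in 53% of members (1632 of 3081) and in 70.6% of strong one-direction promoter peaks, a difference of -17.6 points (-20.3 to -14.9; adjusted p = 3.93e-36, Fisher's exact test). The members had the lower share on 19 of 19 autosomes, with 41% to 64% against 65% to 79.6%. Within 250 bp upstream lay 31.9% of members and 43.8% of strong peaks. Within 250 bp downstream, counting the start site itself, lay 24.2% and 8.4%. In CpG-island-like windows the upstream shares were 50.5% and 84.8%, a larger difference of -34.3 points.

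**Figure D3:**
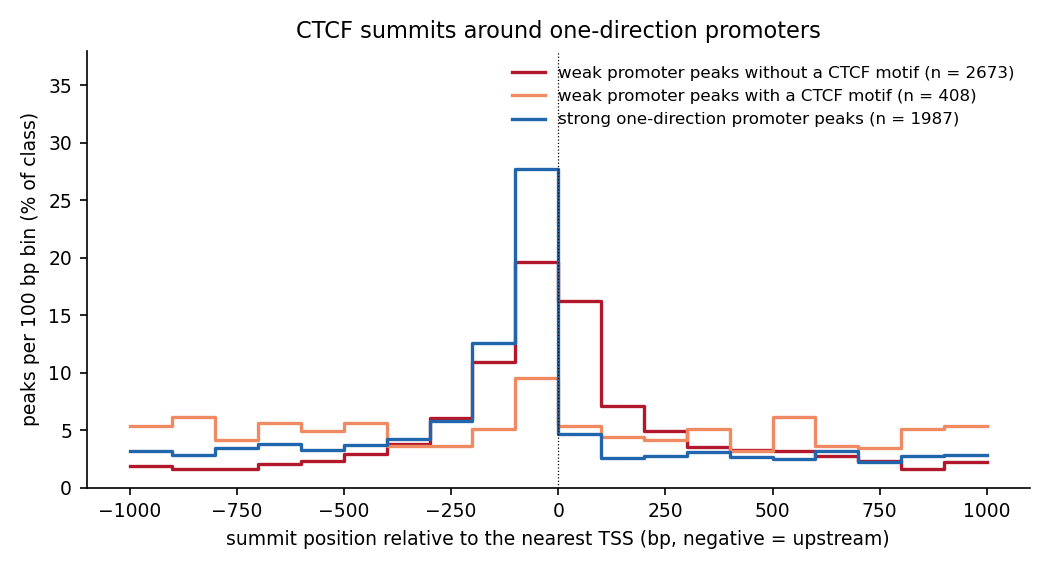
Position of the peak summit relative to the nearest protein-coding TSS (x axis, bp, bins of 100 bp, gene transcribed to the right) and share of each class per bin (%, y axis), for weak one-direction promoter peaks without (dark red) and with (orange) a CTCF motif and for strong ones (blue). In the first 100 bp downstream lie 16.2% of weak peaks without a motif and 4.68% of strong peaks.

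Positions around the start site are given by motif as a description, with no test. Members without a match crowded the start site, with 34.3% in the 250 bp upstream and 26.1% in the 250 bp downstream, and a median distance of 178 bp. Members with a match spread more evenly over the 2 kb: 26.2% lay 501 to 1000 bp upstream, 23.3% as far downstream, and the median distance was 500 bp. Strong promoter peaks, most of which have a motif, had a median of 227 bp and a sharp maximum of 27.7% in the last 100 bp before the start site. In the profile of summits around the start site, weak peaks with a match therefore differ in shape from strong ones. The share within 250 bp of the start site was 56.2% in members and 52.2% in strong peaks, a difference of 3.94 points (1.13 to 6.75; adjusted p = 0.00673, Fisher's exact test). It was 0.219 points in peaks ranked from replicate 2 alone and 1.91 in those from replicate 1 alone, neither past the threshold, and reversed to -2.97 with gene 5′ ends only and to -4.79 within CpG-island-like windows.

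Along the gene, the members' summits lay outside protein-coding genes in 29.4%, in introns in 34.6%, in untranslated regions (UTRs) in 21%, in coding exons in 10.5% and in other exons in 4.48%. Strong one-direction promoter peaks gave 41.4%, 36.9%, 9.61%, 6.44% and 5.64%. These parts follow the position around the start site and were not tested separately. A start site of a long non-coding RNA on the opposite strand lay within 1 kb in 10% of members (308) and 6.74% of strong peaks, a difference of 3.25 points (1.69 to 4.76; adjusted p = 6.78e-05, Fisher's exact test), so some of these promoters are one-directional only for coding genes. With the lowest and highest 10% of signal the difference was 2.3 points and missed the threshold. Soft-masked sequence lay under 10.6% of members' summits and 35.5% of those of weak distal peaks (-24.9 points, -26.2 to -23.5; adjusted p = 2.19e-184, Fisher's exact test), but within CpG-island-like windows the shares were 3.07% and 3.95%, and the difference of -0.882 points missed the threshold.

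A peak of higher signal lay within 1 kb of 793 members, or 25.7%. A higher peak was within 250 bp of 339 members (11%) and 251 to 1000 bp from a further 454 (14.7%), and 2288 (74.3%) had none within 1 kb. The same shares in weak distal peaks were 4.22%, 5.57% and 90.2%. The 339 closest had a median signal of 9.92, and 1.18% of them had a motif match, while 15.9% of the higher peaks beside them had one. Of the 2288 members without a higher peak within 1 kb, 15.4% had a match and 51.4% a CpG-island-like window, so both shares stayed near those of the whole set. Among the 928 members in the lowest 5% of signal, 45.9% were within 1 kb of a higher peak, against 17% of the other 2153. The 5 members of lowest signal were all among these: Zfp579, a zinc-finger gene (5.2), Pgls, an enzyme of the pentose phosphate pathway (5.23), Trim30b (5.23), Car9, a carbonic anhydrase (5.24), and Exoc3l (5.27), each 200 to 277 bp from a higher peak.

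Another optimal peak of any signal lay within 5 kb of 62.2% of members and 53.6% of strong one-direction promoter peaks (8.62 points, 5.84 to 11.4; adjusted p = 2.00e-09, Fisher's exact test). Without the peaks that had a higher one within 1 kb, the difference reversed to -3.66 points (49.1% against 52.8%). It was 1.07 points in peaks ranked from replicate 2 alone and 1.93 in those from replicate 1 alone, neither past the threshold. That restriction takes away 793 members that all have a neighbour within 1 kb, and 34 strong peaks, so it lowers the members' share by its construction.

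The 2 libraries supported the members unevenly. Each library's own list holds 300000 peaks, many more than the optimal list. At least 1 bp of overlap with a peak of the list was found for 99.2% of members in replicate 1, 92.2% in replicate 2 and 91.4% in both, but overlap also picks up stronger neighbours. With a library summit required within 100 bp, the shares were 86.3%, 73.9% and 63.6% (1959 members), and 103 members (3.34%) had such a summit in neither library. Weak distal peaks had one in both libraries in 77.8%, and strong one-direction promoter peaks in 99.9%. Among members it was 77.5% with a motif match and 61.5% without, 71.2% where no higher peak lay within 1 kb, and 18% where one lay within 250 bp.

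**Figure D4:**
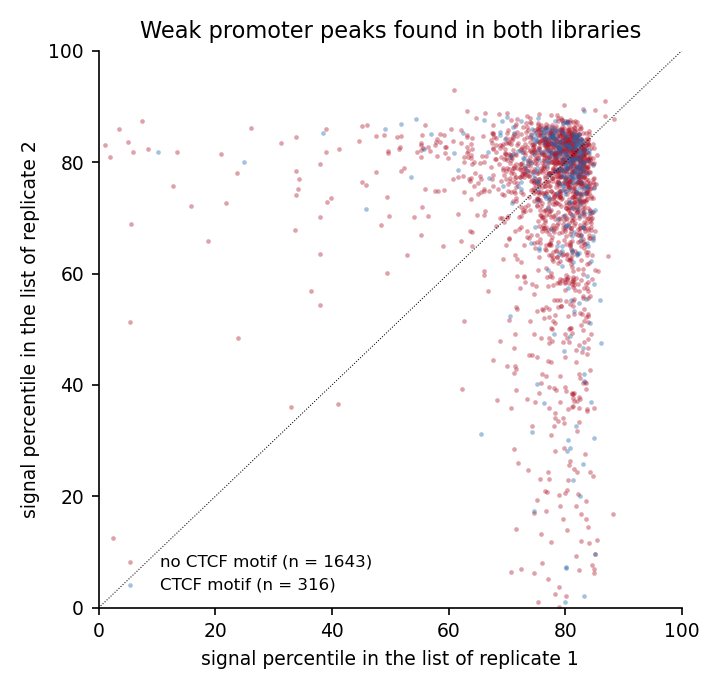
Signal percentile in the peak list of replicate 1 (x axis) and of replicate 2 (y axis) of each weak one-direction promoter peak that has a summit within 100 bp in both libraries, with (blue, n = 316) and without (red, n = 1643) a CTCF motif. The dotted line marks equal percentiles. Most points lie near the 80th percentile in both lists, a place that follows in part from the rule. The 2 arms hold peaks that are low in 1 library only.

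Where the summits matched, the members had a median percentile of 79.5 in the list of replicate 1 and 78.5 in that of replicate 2. The quartiles were 75.4 and 81.9, and 69.9 and 82.8. Weak distal peaks had medians of 80 and 77.7. Each library's list holds 300000 peaks, and both libraries entered the list of 65482 that chose the members. Percentiles near 80 thus follow in part from the rule and do not measure agreement of the libraries. The scatter of the library percentiles holds 2 arms of peaks that are near the median in 1 library and low in the other. The 5 with the largest gaps were Ap2a1, an adaptor subunit of endocytosis (3.56 in replicate 1 and 85.9 in replicate 2), Tinag, a basement membrane protein of kidney tubules (1.13 and 83.1), Smim7 (7.51 and 87.3), Pa2g4 (1.97 and 80.9) and Dhx32, an RNA helicase family member (83.3 and 2.08). Only Dhx32 of these was higher in replicate 1, and only it had a motif match (score 16.2). The 5 with the highest lower percentile were Fgfr2, a growth factor receptor needed for kidney branching (88.4 and 87.8), Fa2h, a fatty acid hydroxylase (86.9 and 88.3), Wdr81 (86.8 and 91), Mrps26, a mitochondrial ribosomal protein (85.2 and 89.3), and Osbpl11, a lipid-binding protein (84.1 and 85.6). None of these 5 had a match, and 4 of them had a higher peak within 1 kb, Osbpl11 being the exception. By overlap alone, Casp2, Cep63, 2200002D01Rik, Azi2 and Abcc5 ranked highest, between the 97.9th and 99.7th percentiles of both libraries, but each lay 200 to 212 bp from a higher peak and had no summit within 100 bp in replicate 1.

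Another view of support was the upper part of each library's list, cut to the 65482 peaks of the optimal list. Members were assigned to it by overlap, so it also picks up stronger neighbours. This upper part held 60.4% of members in replicate 1, 50.3% in replicate 2, 29.8% in both and 19.1% in neither. The authors' conservative list, thresholded on the same libraries, held 43.3% of members (1334), 44.5% of weak distal peaks and 99.9% of strong one-direction promoter peaks. The q-value stood at the highest value of the list in 58.4% of members (1798) and was above 0.05 in 7.24% (223). Of the 339 members within 250 bp of a higher peak, 48.7% had a q-value above 0.05, against 1.27% of the 2288 without one within 1 kb. The reported interval was 330 bp wide in 99.8% of members and of weak distal peaks, and in 0.654% of strong promoter peaks, so the width carries no information on weak peaks.

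A weak one-direction promoter peak was found at 2653 of 20780 protein-coding genes on the autosomes, or 12.8%, and 257 of these genes had a strong one as well. The gene lists below are described by their counts beside that share, with no test. Genes of kidney cell types were mostly near it. Of 21 nephron progenitor genes 3 had a member: Dll1, a Notch ligand, Pax2, a transcription factor of the early nephron, and Wnt4, a signal for nephron formation. Of 22 podocyte genes 2 did, among them Actn4, an actin crosslinker. Of 25 proximal tubule genes 2 did, Cyp27b1, which activates vitamin D, and Ggt1, a brush-border enzyme. The ureteric bud and collecting duct list had 3 of 24 (Atp6v0a4, Calb1, Wnt7b), renal stroma 4 of 23 (among them Col1a1, Ecm1 and Fat4), polycystic kidney disease 2 of 18 (Dzip1l, Glis3), endothelial genes 2 of 20 (Esam, Vwf), immune genes 1 of 22 (Ptprc) and erythroid genes 1 of 15 (Epor).

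The loop of Henle and distal tubule list stood higher, with 9 of 26 genes or 34.6% (95% Wilson interval 19.4% to 53.8%). Any promoter peak was present at 46.2% of this list and 40.3% of all genes, and members at 75% and 31.7% of the genes with one. They were Calb1, a calcium-binding protein, Cldn10 and Cldn14, tight junction claudins, Irx2 and Irx3, patterning factors of the nephron, Pvalb, a calcium-binding protein, Stk39 and Wnk4, kinases that control salt transport, and Trpm7. Of that list 3.85% had a strong one-direction peak, where 9.08% of all genes had one. Slc12a1, Slc12a3 and Umod, the transporters and secreted protein that define these segments, had no member. Calb1 had its summit 28 bp downstream of the start site at chr4:15881129-15881458, within a UTR, with percentiles of 79.8 and 82.4 and no match. Stk39 had 2 members, at chr2:68470798-68471127 and chr2:68366065-68366394, with percentiles of 82 and 80.9 and of 84.1 and 78.3, both without a match. Cldn14 had a match with a score of 17.7 at chr16:93943147-93943476, 928 bp upstream, with percentiles of 81.3 and 77.2.

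The ranks of other kidney genes in the libraries were as follows. Cyp27b1 stood at 79.7 and 85.4, 845 bp upstream of its start site, with a match of score 14.9. Col1a1 had a match of 13.1 and percentiles of 79.5 and 77.5, and Glis3 one of 14.4 with 74.5 and 84.1. Pax2 had a summit within 100 bp in replicate 2 only (90), and Dll1 and Wnt4 in replicate 1 only (79.1 and 79.5). None of the 3 nephron progenitor genes had a member with summits in both libraries.

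Genes of CTCF's own partners had members in 7 of 19, or 36.8% (19.1% to 59%), and a strong one-direction peak in 6 of 19, of which Pds5a, Smc3 and Stag1 had both. Any promoter peak was present at 68.4% of them, and members at 53.8% of those. The 7 were Rad21 and Smc3, subunits of the cohesin ring, Stag1, its accessory subunit, Pds5a, a cohesin regulator, Ankrd11, Maz and Yy1, DNA-binding or chromatin proteins. Ctcf itself had no member. Rad21 had its summit 157 bp upstream of the start site at chr15:51991739-51992068, in a window with a CpG ratio of 1.01, with percentiles of 82.4 and 84.8 and no match. Smc3 stood at 78.1 and 84.4, and Stag1 at 60.8 and 83.8, both without a match. Ankrd11 had a match with a score of 15.9 and percentiles of 82.5 and 77.6.

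**Figure D5:**
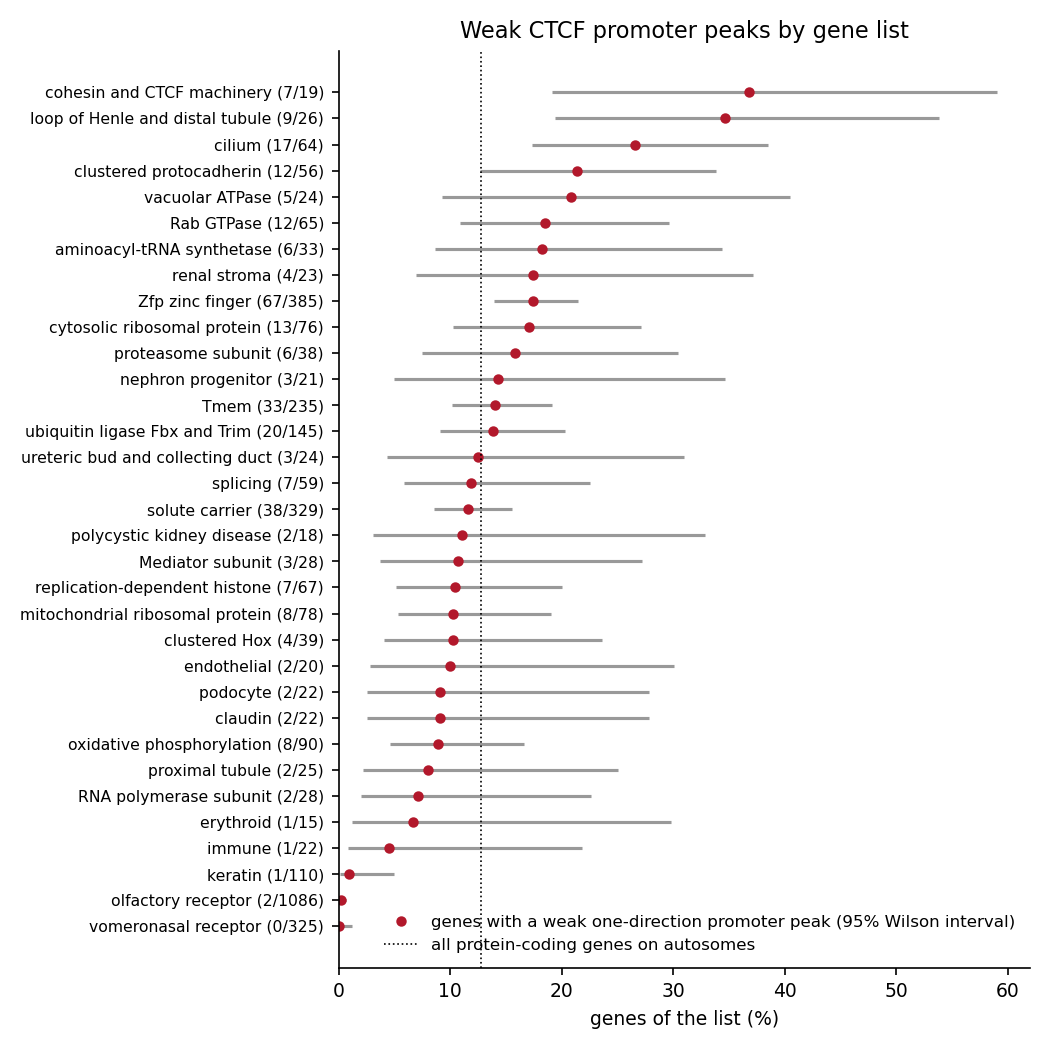
Share of the genes of each list that have a weak one-direction promoter peak (x axis, %; red points, 95% Wilson intervals as grey bars that cover counting error only; counts beside each name). The dotted line marks the 12.8% of all protein-coding genes on autosomes. Cohesin and CTCF partners (36.8%), loop of Henle and distal tubule genes (34.6%) and cilium genes (26.6%) stand at the upper end, olfactory and vomeronasal receptors at the lower. Few of these receptor genes had a promoter peak of any signal (1.01% and 0.308%).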

How the data were processed

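The authors deposited 5 peak lists on mm10: 1 for each library, 1 from both libraries pooled, and the optimal and conservative lists thresholded for reproducibility, per the notes deposited beside the files. No aligner, caller or reproducibility threshold is given in the sources used here. The deposited signal value is a score from the caller with no stated scale. Peaks were chosen by its rank within one list, and its raw values are given only to describe peaks of that list. The deposited q-values are on the −log10 scale and saturate at 5.11. The authors' summit offset placed each summit. The lists hold no counts, so intervals cover counting error over peaks only.

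Summits were joined to GENCODE M21 start sites and the GRCm38.p6 sequence, with Python 3.11.15, numpy 2.4.6, pandas 2.3.3, scipy 1.17.1 and matplotlib 3.10.9. The motif matrix came from 6548 sites in strong distal peaks on odd-numbered autosomes, and its learning and the test of shares were tested on simulated data. Shares were compared with two-sided Fisher's exact tests, Newcombe intervals and Benjamini-Hochberg adjustment over 10 comparisons, at a threshold of 0.05. Genes were named by rule: the 5 just inside and outside the signal threshold, the 5 of lowest signal, the 10 highest motif scores outside soft-masked summits, the 5 highest CpG ratios without a match, the extremes between libraries, and up to 4 of each gene list. Matching by library summit, and the genes named from it, were added after seeing that overlap picks up neighbours, and further names from the lists, the genes without a member among them, were chosen after their values were seen. The members and lists were chosen with earlier results of these data known. Values of some genes are not reported here. Alternatives changed the threshold, promoter width, start sites, motif setting, list and library.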

Additional observations from a re-analysis of the deposited data

How the results depend on the processing

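Of 118 alternative values over 12 results, 98 kept their direction, side of the threshold or size. The motif, CpG and upstream differences kept direction and call in each alternative run: -35.0 to -3.39 points for the motif against weak distal peaks, -74.2 to -22.5 against strong promoter peaks, 47.7 to 62.1 and 11.8 to 16.5 for CpG-island-like windows, and -34.3 to -16.7 for upstream summits. Of the other 20, 1 is the number of members, 2 are the support by both libraries and 1 is the soft-masked difference. That difference was not small, at -24.9 points in the main run. The rest concern the smaller differences. With 1 library left out and the other ranked alone, the share within 250 bp differed by 0.219 to 1.91 points and the share with a peak within 5 kb by 1.07 to 1.93. With the lowest and highest 10%, 1460 members remained, and the differences were 0.838 points (within 250 bp), 2.3 (opposite non-coding start site) and -5.57 (motif strand). The share within 250 bp differed by 0.245 points with promoters of 500 bp, -2.97 with gene 5′ ends, -4.79 in CpG-island-like windows and 2.27 in peaks of highest q-value. A peak within 5 kb gave -3.66 points without peaks near a higher one and 2.41 at highest q-value. Motif strand gave -5.36 points without peaks near a higher one, -24.8 at the score of 1 in 100000 and -5.59 within 50 bp. Soft-masked summits gave -0.882 in CpG-island-like windows. Support by both libraries was 76.5% with 50% of the interval overlapped and 63.6% by summits within 100 bp. The causes were not tested. The restrictions to CpG-island-like windows and highest q-values, and summit matching, were chosen after seeing the data. No paired analysis was possible because the libraries form 1 group. Depth is unknown, so a missing weak peak says nothing on binding there.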

Other observations

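Several gene families outside the kidney lists had weak one-direction promoter peaks above or below the 12.8% of all genes, and their values are given with no test. Cilium genes had members in 17 of 64 (26.6%), with any promoter peak at 57.8%. Among them Cep89 stood at the 81.4th percentile in replicate 1 and the 83.8th in replicate 2 with a motif score of 13.8, and Tmem216, a transition zone protein of the cilium, at 78.9 and 79.8 without a match. Clustered protocadherins, cell-surface proteins of neurons whose alternative promoters are known for CTCF sites, had members in 12 of 56 (21.4%) and a strong one-direction peak in 0 of 56. Any promoter peak was present at 73.2% of them, against 40.3% of all genes, and members at 29.3% of the genes with one, against 31.7% overall. Pcdhb12 had its motif centred on the summit (score 14.4; percentiles of 80.1 and 81.9), while Pcdhga9 (80.5 and 84.6) and Pcdhga8 (78.2 and 81.1) had no match. Zfp zinc-finger genes had members in 67 of 385 (17.4%) and strong peaks in 29, or 7.53%, with any promoter peak at 45.5%. Vacuolar ATPase genes, which pump protons in intercalated cells, had members in 5 of 24 (20.8%), of which Atp6v1e1 stood at 83.2 and 79.9.

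Cytosolic ribosomal protein genes had members in 13 of 76 (17.1%) and strong peaks in 17, or 22.4% against 9.08% of all genes. Any promoter peak was present at 59.2% of them, and members at 28.9% of the genes with one, against 31.7% overall. Rps16, Rps12 and Rpl37 had their summits 64 to 71 bp from the start site in windows with CpG ratios of 0.718 to 0.966, none with a match. Rpl37a had a match with a score of 13.8 at a summit 471 bp from the start site, and 1 of the peaks at Rpl13 had a match as well. Oxidative phosphorylation genes had members in 8 of 90 (8.89%), and Atp5l (score 14.9) and Atp5j2 (15.6) had matches. Any promoter peak was present at 51.1% of this family, and members at 17.4% of the genes with one. Olfactory receptors had 2 of 1086 (0.184%, Olfr94 and Olfr214) and vomeronasal receptors 0 of 325, which allows up to 1.17% (95% Wilson interval). Promoter peaks of any signal were rare there, at 1.01% and 0.308% of genes, against 40.3% of all genes. Keratins had 1 of 110, Krt78, with any promoter peak at 3.64%.

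Some genes had several weak peaks, not always at the same start site. Those at Stk39, for example, lay at different start sites of the gene. There were 411 genes with 2 or more members. Rreb1, a zinc-finger transcription factor, had 5, and Gtf2i, Kif22, Maz, Pgls, Ppp3ca, Slc16a3, Tsc22d1 and Zfp687 had 4 each. Aars, an aminoacyl-tRNA synthetase gene with its summit in soft-masked sequence, had a motif score of 20 in a peak at the 82nd percentile of replicate 1 and at 63.4 in replicate 2.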
